A study of Arabidopsis thaliana with 12 samples.

Results

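The transcripts described here come from the genomes inside the plastids and mitochondria of Arabidopsis thaliana roots. They were read by the run of consecutively numbered probe sets that the ATH1 array devotes to organelle genes. Of the 125 probe sets in that run, 5 were listed with a nuclear locus and were dropped, which left 120 of the 22746 probe sets tested. The platform annotation listed 72 of them with a plastid gene and 13 with a mitochondrial gene, and the other 35 had no listed gene.

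Roots of 7-day-old seedlings of the ecotype Col-0 were taken after 25 min with cellobiose, with chitin, with oligogalacturonides (OGs), or with no treatment. Each group held 3 biological replicates, so there were 12 arrays, and each sample pooled the roots of the seedlings on a mesh disc that kept roots and shoots apart. Cellobiose is a fragment of cellulose, OGs are fragments of pectin, and chitin is a fungal wall polymer that the design text names as chito-oligomers. The RNA had been screened by qRT-PCR for a WRKY30 response, and no dose is stated in the sources used here.

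Plant organelles keep small genomes of their own beside the nuclear genome. The plastid genome encodes core subunits of the photosystems, the cytochrome b6f complex, the ATP synthase, the NADH dehydrogenase-like (NDH) complex, the large subunit of rubisco, part of the plastid ribosome and the plastid-encoded RNA polymerase, while the mitochondrial genome encodes parts of the respiratory chain and the machinery that matures cytochrome c. Root plastids are mostly non-green, yet they transcribe the same genome as chloroplasts. Standard Affymetrix labelling starts from poly-A tails, and organelle messages of plants carry such tails only in part and often on the way to decay, so a level here is the level of what this labelling captured. In bulk tissue, fewer plastids per cell and less RNA per plastid cannot be told apart. Part of the mitochondrial genome is also present as a copy in nuclear chromosome 2, where the 5 dropped probe sets were listed, and a probe set cannot tell such copies apart.

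No organelle transcript passed the test with any elicitor. The limma test called 0 of the 120 probe sets at an adjusted p under 0.05 with cellobiose, against 8.64% of all probe sets tested, 0 with chitin, against 8.8%, and 0 with OGs, against 4.06%. The F test of the replicate number in the same limma model called 0 members at an adjusted p under 0.05, against 0.897% of all, and 2 at an unadjusted p under 0.05, against 8.27%. At an unadjusted p under 0.05, cellobiose gave 15 members, or 12.5%, against 21.6% of all probe sets. All 15 were lower with cellobiose, and 13.5% of all probe sets were lower at that limit. The 15 held 13 of the 72 plastid genes, or 18.1%, and 2 of the 13 mitochondrial genes, or 15.4%. None of the 35 probe sets with no listed gene was among them. At the same unadjusted limit chitin gave 3 members, or 2.5%, against 23% of all probe sets, and OGs gave 3, or 2.5%, against 16.8%. Ordinary tests without pooled variances also called 0 members with each elicitor, against 4.42% of all probe sets with cellobiose, 4.88% with chitin and 0.347% with OGs. At an unadjusted p under 0.05 these tests had 10 members with cellobiose, against 19.8% of all, 4 with chitin, against 21.8%, and 3 with OGs, against 15.1%. Between elicitors the test called 0 members in all 3 comparisons, where 0.0176% (cellobiose minus chitin), 0.044% (cellobiose minus OGs) and 0.106% (chitin minus OGs) of all probe sets were called. At an unadjusted p under 0.05, 4, 5 and 0 members stood in those 3 comparisons, against 5.68%, 5.44% and 6.36% of all.

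The intervals say how large a difference these arrays leave possible on the deposited scale. Each is for a single member without adjustment over members, and none covers the uncertainty of the scaling between arrays. For cellobiose, the 95% interval of the log2 change lay within 1 log2 unit of 0, a factor of 2, for 112 of the 120 members. The 8 members whose interval reached further were the plastid genes ndhD, psbM, psbZ, psaB, ndhJ, ndhK, ndhC and psbI, and the lowest bound was -2.10 for ndhJ. For chitin and for OGs only the interval of ndhJ reached beyond 1 log2 unit. All 13 mitochondrial genes stayed within that range with every elicitor.

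What most of the 72 plastid genes shared was a pattern across single arrays. Measured as a deviation from its own mean over the 12 arrays, the median plastid gene stood at -0.23, 0.08 and -0.25 on the cellobiose arrays, at -0.07, 0.08 and 0.03 on the chitin arrays, at 0.12, -0.14 and 0.19 on the OGs arrays and at 0.10, -0.11 and 0.23 on the control arrays. Cellobiose replicates 1 and 3 were low for nearly the whole plastid genome, with 4 and 3 of the 72 genes above their own mean. Control replicates 1 and 3 were high, with 55 and 63 genes above their mean, while control replicate 2 was low, with 21. OGs replicate 2 was low too, with 12 genes above their mean. The median deviations of the 13 mitochondrial genes and of the probe sets with no listed gene lay between -0.09 and 0.10. Among genes with a mean level of at least 5 the ranges were closer, from -0.14 to 0.20 for 7 mitochondrial genes and from -0.29 to 0.24 for 58 plastid genes.

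**Figure D1:**
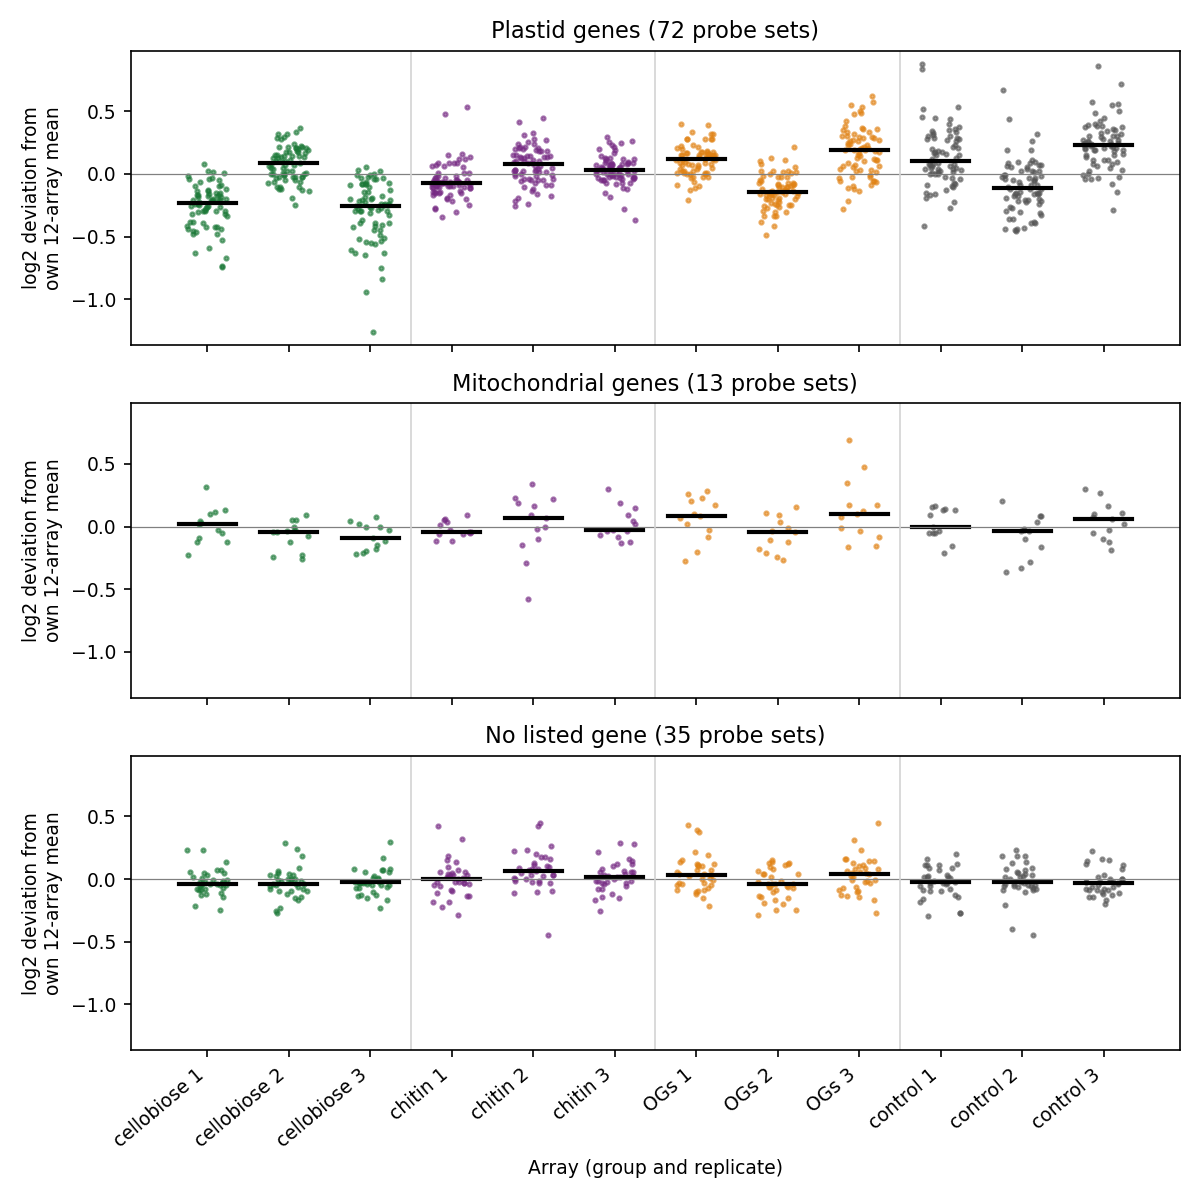
Deviation of each organelle probe set from its own mean over 12 arrays (y axis, log2 units) on each array (x axis, by group and replicate), for plastid genes, mitochondrial genes and probe sets with no listed gene. Points are probe sets and black bars are medians. The plastid medians were lowest on cellobiose replicates 1 and 3, at -0.23 and -0.25, and the medians of the other 2 panels, which hold many dim probe sets, lie between -0.09 and 0.10.

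With cellobiose, 65 of the 72 plastid genes had a log2 change below 0, or 90.3%, against 58.3% of all probe sets, and the median plastid change was -0.24 against -0.03 for all. The direction turned when arrays were scaled to the poly-A spike-ins, RNAs meant to be added to each sample and recognised here by probe set name. The median plastid change was then 0.14 and the median of all probe sets 0.34, since that scaling raised every cellobiose change by 0.38. The sample labels do not state the addition, and the spike-in values had been through GCRMA with all others. The scaling is therefore not an independent calibration. Relative to the median of all probe sets, the plastid median stood at -0.21. This difference cannot change with the scaling, which adds the same amount to every probe set. After the scaling 16 plastid genes were still below 0, or 22.2%, against 8.62% of all. The 3 cellobiose to control pairs did not run the same way: the median plastid change was -0.33 in pair 1, 0.20 in pair 2 and -0.46 in pair 3. In pair 1, 62 of the 72 genes were lower with cellobiose, in pair 2, 17 were, and in pair 3, 67 were. Only 12 plastid genes, 16.7%, were lower in 3 of 3 pairs, against 26.4% of all probe sets.

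On the deposited scale the median plastid change lay nearer 0 with chitin and OGs, at -0.08 and -0.02. This order depended on the scaling, since after the spike-in scaling, which raised these changes by 0.21 and 0.23, the cellobiose median was 0.14, the chitin median 0.13 and the OGs median 0.20. With chitin, 48 of 72 genes were below 0, or 66.7%, against 58.6% of all probe sets, and with OGs 40 were, or 55.6%, against 58.2%. The chitin pairs split as the cellobiose pairs did, at -0.17, 0.16 and -0.19, and the OGs pairs stood at -0.01, -0.02 and -0.05. The 3 comparisons share the control arrays, and control replicate 2 is the low control for most plastid genes. On the deposited scale 64 of 72 genes were lower with cellobiose than with chitin, or 88.9%, against 49.9% of all probe sets. Against OGs 66 were lower with cellobiose, or 91.7%, against 52.9%. In 3 of 3 pairs 27 were lower than with chitin, or 37.5%, against 12.6%. Only 6 were lower than with OGs in 3 of 3 pairs, or 8.33%, against 12.2%.

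Other measures were also low on cellobiose replicates 1 and 3, though they did not follow the plastid medians on every array. Of 26 listed nuclear photosynthesis genes that mark green tissue, 2 were matched to a probe set by their locus. These were RCA, which encodes rubisco activase, and LHCB4.1, a light-harvesting protein of photosystem II. Only probe sets annotated with that single locus were matched, so a gene left unmatched need not be missing from the array. RCA stood at 9.86, 10.93 and 9.63 on the cellobiose arrays, 10.79, 11.05 and 10.68 with chitin, 10.79, 10.86 and 10.48 with OGs, and 11.53, 10.48 and 11.33 in the control. LHCB4.1 stood at 8.45, 9.72 and 8.33 with cellobiose and at 10.10, 9.23 and 9.94 in the control. Both were thus low on cellobiose replicates 1 and 3 and high on control replicates 1 and 3, as most plastid genes were. Their cellobiose changes, -0.97 ± 0.34 and -0.92 ± 0.35 (SE), did not pass the limma test (adjusted p = 0.13 and 0.158), and they keep their sign after the spike-in scaling. Averaged over both genes, the deviation from their own means was -0.88, 0.29 and -1.05 with cellobiose, 0.12, 0.17 and 0.08 with chitin, 0.07, 0.07 and -0.09 with OGs, and 0.78, -0.18 and 0.60 in the control. The mean log2 level of the 24 poly-A spike-in probe sets was 6.48, 6.86 and 6.42 with cellobiose, 6.90, 6.81 and 6.55 with chitin, 6.68, 6.72 and 6.81 with OGs, and 7.28, 6.80 and 6.80 in the control. The lowest spike-in levels also fell on cellobiose replicates 1 and 3, and the highest on control replicate 1. On control replicates 2 and 3 the spike-in levels were alike, while the plastid medians were -0.11 and 0.23. On OGs replicates 2 and 3 the plastid medians were -0.14 and 0.19, against 0.07 and -0.09 for the nuclear photosynthesis genes. The part of green tissue and of the spike-in level in the plastid differences was not tested.

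Of 12 listed root markers, 3 were matched to a probe set by locus. No shoot samples stood beside them, so their levels do not test root identity or the share of green tissue. The root hair expansins EXPA7 and EXPA18 and the root beta-glucosidase PYK10 had mean log2 levels between 9.64 and 13.5 over the 12 arrays, and none of the 3 was called with an elicitor. At the same time RCA had a mean of 10.7 and LHCB4.1 a mean of 9.36, so transcripts of these nuclear photosynthesis genes were well measured in these root samples.

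The genes of the NDH complex, which carries electrons back from photosystem I acceptors to plastoquinone, had the lowest median cellobiose change of the plastid role groups with several members, at -0.42 over 11 genes, and it was -0.04 after the spike-in scaling. The largest difference of any member was in ndhJ. It had log2 levels of 5.76, 6.39 and 5.24 with cellobiose, 6.97, 6.82 and 6.13 with chitin, 6.29, 6.44 and 7.00 with OGs, and 7.37, 6.18 and 7.35 in the control. Cellobiose replicate 2 lay above control replicate 2, so the groups overlapped, and the low values came from cellobiose replicates 1 and 3. The cellobiose change was -1.17 ± 0.41 (95% interval -2.10 to -0.25), with an adjusted p of 0.126, and it was -0.80 after the spike-in scaling.

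Its neighbour ndhK had 4.85, 5.48 and 4.66 with cellobiose, 6.14, 5.88 and 5.32 with chitin, 5.64, 5.70 and 5.73 with OGs, and 6.43, 5.21 and 6.15 in the control, a change of -0.93 ± 0.32 (95% interval -1.66 to -0.21; adjusted p = 0.122). Again only replicate 2 went the other way. The third gene of that cluster, ndhC, had 8.89, 9.56 and 8.58 with cellobiose, against 9.87, 8.98 and 9.98 in the control (change -0.60 ± 0.32, adjusted p = 0.332). After the spike-in scaling ndhK and ndhC stood at -0.56 and -0.22.

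A different shape was seen in ndhG, another subunit gene of the complex. It had 4.63, 4.82 and 4.65 with cellobiose, 5.13, 5.43 and 5.11 with chitin, 5.19, 4.81 and 5.04 with OGs, and 4.97, 5.33 and 5.05 in the control. All 3 cellobiose arrays lay below all 3 controls, and all 3 pairs were lower with cellobiose. The change of -0.42 ± 0.13 had an adjusted p of 0.0945, and was -0.04 after the spike-in scaling. When only the cellobiose and control arrays were fitted, ndhG was the single member called, at an adjusted p of 0.0499, while 2.77% of all probe sets were called lower in that fit. Of the other NDH genes, ndhD stood at -0.53 and ndhE at -0.43 with cellobiose, while ndhA, at 0.03, and ndhF, at 0.02, lay near 0.

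The plastid ATP synthase makes ATP from the proton gradient of the thylakoid. Its 5 genes had a median cellobiose change of -0.40, and of -0.02 after the spike-in scaling. The smallest p of all members with cellobiose belonged to atpF, which encodes a stalk subunit. It had 5.15, 5.35 and 5.03 with cellobiose, 5.43, 5.45 and 5.51 with chitin, 5.58, 5.15 and 5.56 with OGs, and 5.55, 5.61 and 5.69 in the control. Cellobiose and control did not overlap and every pair was lower, by 0.40, 0.26 and 0.66 log2 units. The change was -0.44 ± 0.13 (95% interval -0.73 to -0.14; adjusted p = 0.0766), and -0.06 after the spike-in scaling.

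The subunit genes atpA and atpB differed in size of change. atpA had 8.75, 9.37 and 8.67 with cellobiose, 9.28, 9.34 and 9.31 with chitin, 9.33, 9.02 and 9.29 with OGs, and 9.56, 9.16 and 9.61 in the control (change -0.51 ± 0.20, adjusted p = 0.167), and atpB had a change of -0.19 ± 0.16 (adjusted p = 0.594). Both were highest with cellobiose on replicate 2, and neither difference passed the test. The epsilon subunit gene atpE stood at -0.40 and atpI, at a mean level of 3.46, at -0.14.

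Photosystem genes encode the reaction centres of the light reactions. The 7 genes counted with photosystem I had a median cellobiose change of -0.24 and the 13 of photosystem II of -0.26, which were 0.14 and 0.11 after the spike-in scaling. The reaction centre gene psaB had 10.08, 10.74 and 10.07 with cellobiose, 10.87, 10.84 and 10.71 with chitin, 10.99, 10.55 and 10.93 with OGs, and 11.09, 10.56 and 11.11 in the control. Its cellobiose replicate 2 lay above control replicate 2, as for ndhJ. The change was -0.63 ± 0.22 (adjusted p = 0.127), and -0.25 after the spike-in scaling.

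psaI, a small photosystem I subunit gene, had 8.48, 8.92 and 8.48 with cellobiose, 8.76, 8.92 and 8.67 with chitin, 8.92, 8.52 and 8.82 with OGs, and 9.09, 8.77 and 9.02 in the control. Cellobiose replicates 1 and 3 were its low arrays (change -0.33 ± 0.16, adjusted p = 0.281).

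The partner reaction centre gene psaA, which lies next to psaB, ran the opposite way between arrays. It had 4.91, 5.01 and 4.90 with cellobiose, against 4.59, 5.67 and 4.71 in the control, so that control replicate 2 was the highest array and the change was -0.05 ± 0.25 (adjusted p = 0.945). In photosystem II, psbI, a small subunit gene, had 9.01, 9.90 and 8.93 with cellobiose and 10.20, 9.42 and 10.26 in the control (change -0.68 ± 0.30, adjusted p = 0.237). psbT, a further small subunit gene, had 3.59, 4.07 and 3.79 with cellobiose, 3.60, 3.61 and 3.94 with chitin, 3.94, 3.71 and 3.76 with OGs, and 4.20, 3.90 and 4.15 in the control. Control replicates 1 and 3 were again the high arrays, and the chitin change of -0.36 ± 0.15 had an adjusted p of 0.185. psbN, which is needed to assemble the complex, had 4.68, 5.09 and 4.77 with cellobiose, 4.94, 5.0 and 5.0 with chitin, 5.02, 4.93 and 5.21 with OGs, and 5.32, 5.04 and 5.21 in the control. Cellobiose replicate 2 overlapped with the control, and the cellobiose change was -0.34 ± 0.13 (adjusted p = 0.15). psbE and psbF, the genes of the cytochrome bound to photosystem II, had cellobiose changes of 0.08 and -0.0049 and intervals within 1 log2 unit of 0.

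Among the cytochrome b6f genes, which include ccsA for the attachment of haem to cytochromes, petL stood low with every elicitor. This gene of a small subunit had 3.74, 3.93 and 3.75 with cellobiose, 3.81, 3.89 and 3.93 with chitin, 3.93, 3.54 and 4.02 with OGs, and 4.50, 3.81 and 4.68 in the control. The difference lies in control replicates 1 and 3, since control replicate 2 is as low as the elicitor arrays. The changes were -0.52 ± 0.18 with cellobiose, -0.45 ± 0.18 with chitin and -0.50 ± 0.18 with OGs (adjusted p = 0.124, 0.173 and 0.196), and -0.15, -0.24 and -0.27 after the spike-in scaling. All of its levels were under 5, the range in which 34.6% of all probe sets had their mean. petN, another small subunit gene, had 5.81, 5.69 and 5.90 with cellobiose, 6.00, 6.25 and 5.94 with chitin, 5.90, 6.16 and 5.90 with OGs, and 5.79, 6.01 and 5.90 in the control. It was lowest on cellobiose replicate 2, the array on which most plastid genes were the highest of that group. The petA gene of cytochrome f was the plastid gene closest to the common array pattern, with 7.76, 8.43 and 7.81 with cellobiose and 8.43, 7.95 and 8.55 in the control.

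The rubisco large subunit gene rbcL had 7.14, 7.65 and 7.11 with cellobiose, 7.65, 7.69 and 7.79 with chitin, 7.70, 7.44 and 7.73 with OGs, and 7.88, 7.11 and 7.83 in the control. Cellobiose replicates 1 and 3 and control replicate 2 shared the low end, and the cellobiose change was -0.31 ± 0.21 (adjusted p = 0.49). With chitin rbcL differed by 0.11 and with OGs by 0.02, neither past the test.

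The plastid makes its own ribosomes and RNA polymerase in part. The 19 ribosomal probe sets had a median cellobiose change of -0.15 and the 4 RNA polymerase genes of -0.21, and these were 0.23 and 0.17 after the spike-in scaling. Small ribosomal subunit gene rps7 had 11.02, 11.20 and 11.03 with cellobiose, 11.25, 11.49 and 11.17 with chitin, 11.47, 11.19 and 11.43 with OGs, and 11.59, 11.27 and 11.67 in the control. All cellobiose arrays lay below all controls, with a change of -0.43 ± 0.14 (adjusted p = 0.104) and of -0.05 after the spike-in scaling. The small subunit gene rps15 had 5.64, 5.72 and 5.77 with cellobiose, 5.94, 5.86 and 5.80 with chitin, 5.93, 5.65 and 5.96 with OGs, and 6.03, 5.84 and 6.00 in the control, again with cellobiose below control on every array (change -0.25 ± 0.09, adjusted p = 0.156).

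The large polymerase subunit genes rpoC1 and rpoC2 stood at -0.34 and -0.29, and the alpha subunit gene rpoA at -0.13, none past the test. rpoC2 had 6.27, 6.47 and 6.04 with cellobiose, 6.34, 6.46 and 6.36 with chitin, 6.56, 6.40 and 6.63 with OGs, and 6.40, 6.51 and 6.75 in the control, and rpoA had 10.53, 10.86 and 10.55 with cellobiose, 10.38, 10.51 and 10.74 with chitin, 10.76, 10.58 and 11.05 with OGs, and 10.86, 10.57 and 10.89 in the control. In both genes the cellobiose and control groups overlapped. rps12, whose message is joined from separate transcripts, was read by 2 probe sets with cellobiose changes of -0.29 and -0.25.

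Of the other plastid genes, accD encodes a subunit of the acetyl-CoA carboxylase that starts fatty acid synthesis. It had 8.51, 8.66 and 8.68 with cellobiose, 8.63, 8.83 and 8.72 with chitin, 8.91, 8.50 and 8.45 with OGs, and 8.75, 9.17 and 8.92 in the control. Here control replicate 2 was the highest array, unlike most plastid genes. The changes were -0.32 ± 0.14, -0.22 ± 0.14 and -0.32 ± 0.14 with cellobiose, chitin and OGs (adjusted p = 0.236, 0.426 and 0.303). The large reading frame ycf1 had 8.93, 9.01 and 8.67 with cellobiose, 8.77, 8.71 and 9.07 with chitin, 8.97, 9.08 and 9.25 with OGs, and 9.25, 8.76 and 9.15 in the control. Its groups overlapped and its changes, -0.18 with cellobiose, -0.20 with chitin and 0.05 with OGs, did not pass. The protease gene clpP stood at -0.17 with cellobiose.

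**Figure D2:**
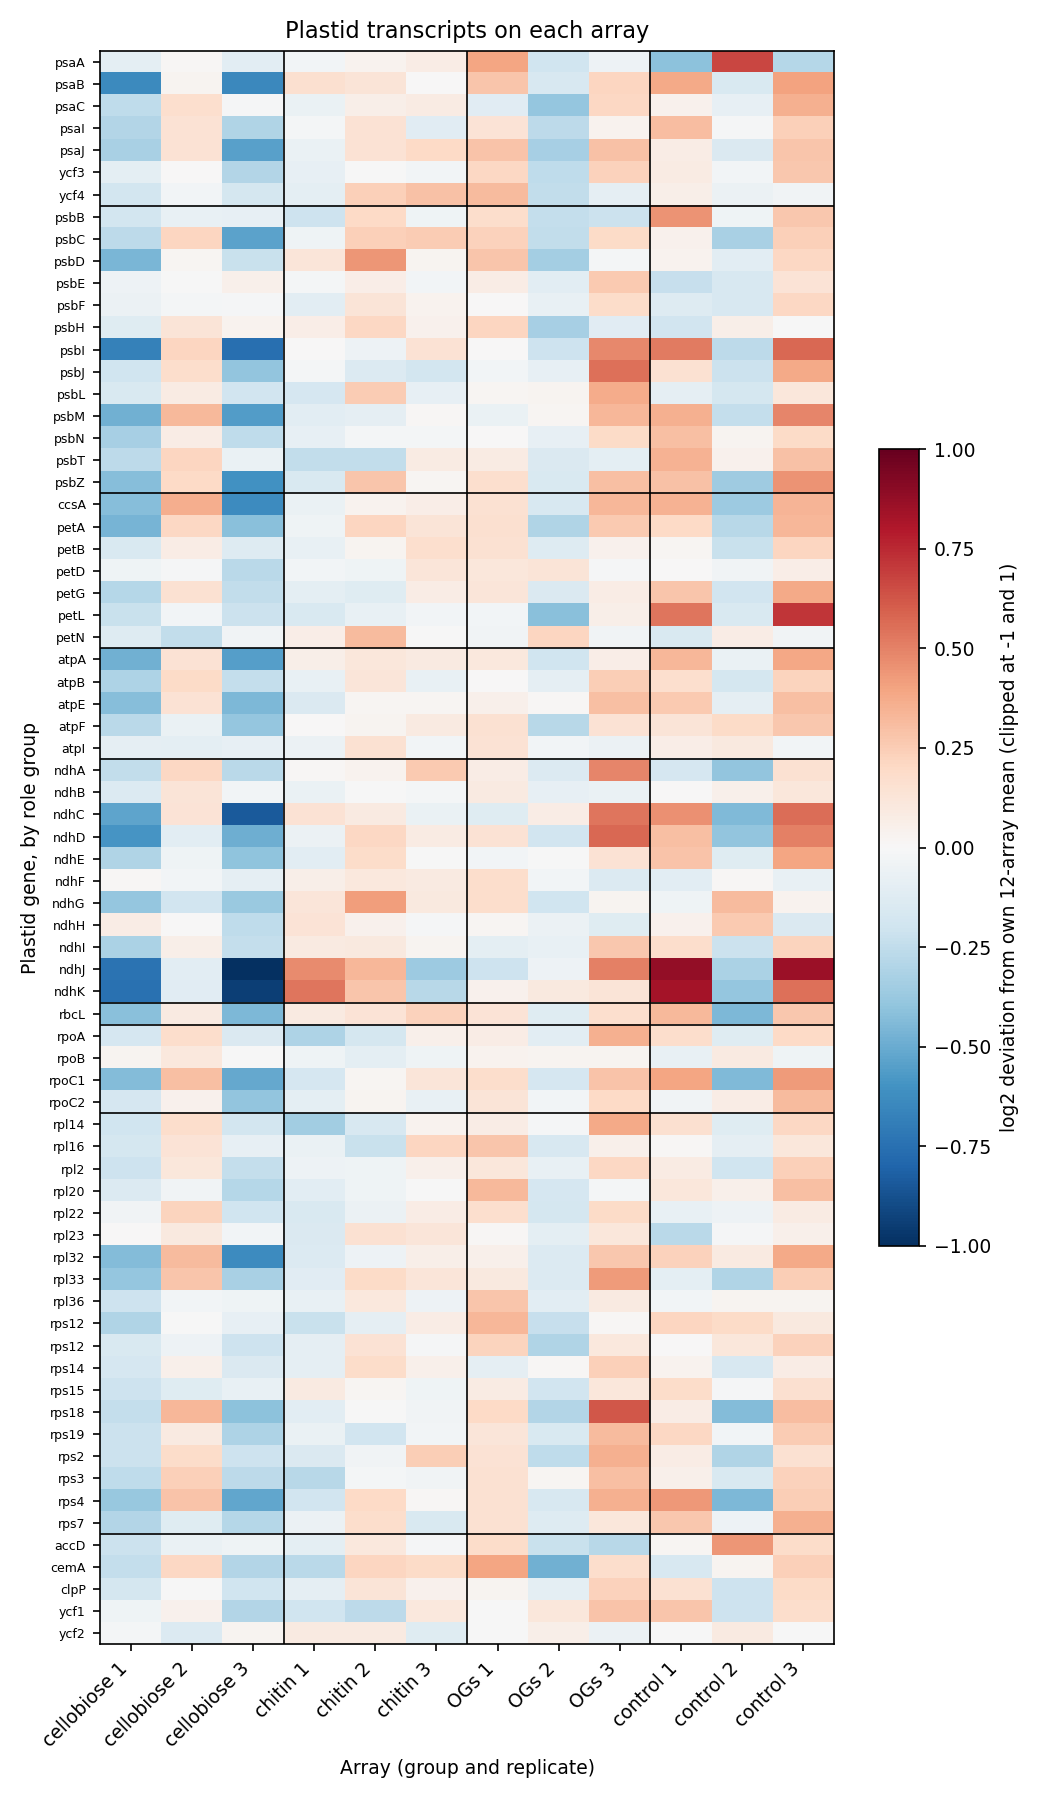
Deviation of 72 plastid probe sets (rows, grouped by role in the order photosystem I, photosystem II, cytochrome b6f, ATP synthase, NDH complex, rubisco, RNA polymerase, ribosome and others) from their own mean over 12 arrays (columns), in log2 units, blue below and red above. Cellobiose replicates 1 and 3 are blue in nearly every row, with 4 and 3 genes above their mean, and psaA and accD are reddest on control replicate 2.

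**Figure D3:**
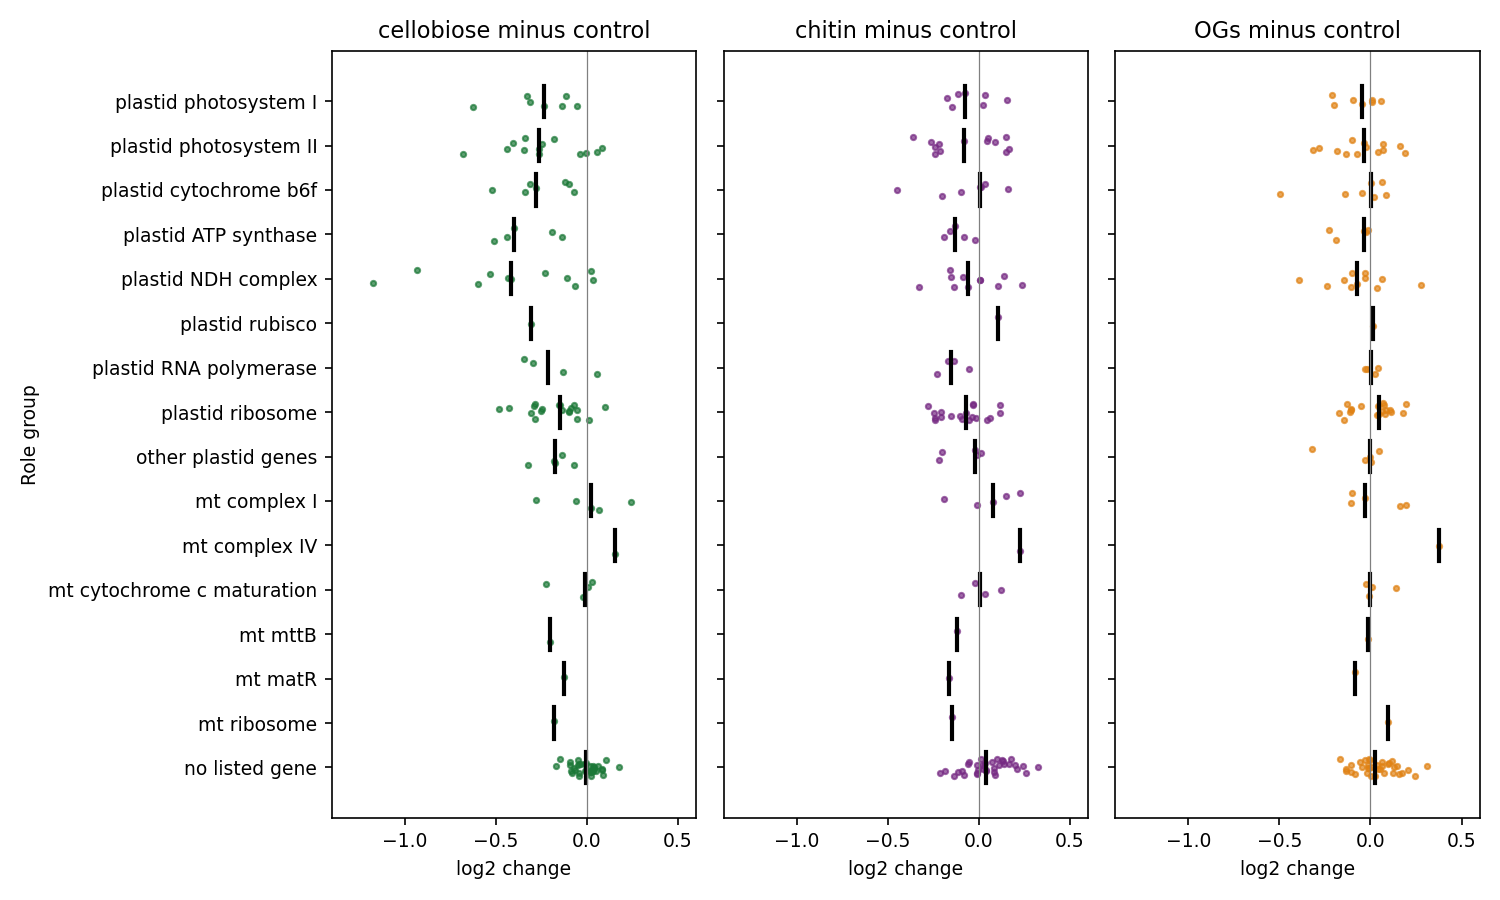
log2 change against control (x axis) of each organelle probe set by role group (y axis, mt for mitochondrial) for cellobiose, chitin and OGs, on the deposited scale. Points are probe sets and bars are group medians; the cellobiose medians of the plastid groups lie between -0.42 and -0.15, and those of all but the NDH complex and ATP synthase turn above 0 after the spike-in scaling.

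The 13 mitochondrial genes had a median change of -0.02 with cellobiose and -0.01 with chitin and with OGs, and 0.35, 0.20 and 0.22 after the spike-in scaling, at which all probe sets had medians of 0.34, 0.17 and 0.20. Of the 13, 6 had a mean level under 5. The median cellobiose change of the other 7 was -0.18, beside -0.25 for the 58 plastid genes and -0.07 for the 14880 of all probe sets at that level, and after the spike-in scaling these were 0.20, 0.13 and 0.31. With chitin the median of those 7 was -0.10, as was that of all probe sets at that level, and with OGs the 7 had a median of -0.02. The 5 complex I genes code for subunits of the first respiratory complex. Among them nad4 had 8.61, 8.81 and 8.63 with cellobiose, 8.78, 8.74 and 8.80 with chitin, 9.04, 8.80 and 8.96 with OGs, and 8.97, 8.82 and 9.10 in the control. The cellobiose arrays lay below the controls, though replicate 2 of both groups nearly met, and the change was -0.28 ± 0.10 (adjusted p = 0.131). It was 0.10 after the spike-in scaling. The other complex I genes nad4L, nad7, nad9 and nad6 had cellobiose changes of 0.24, 0.06, -0.06 and 0.02. nad9 had 4.58, 4.37 and 4.50 with cellobiose, 4.50, 4.77 and 4.80 with chitin, 4.41, 4.49 and 5.30 with OGs, and 4.46, 4.45 and 4.71 in the control, and OGs replicate 3 stood apart from its group at 5.30.

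cox2, a core subunit gene of cytochrome c oxidase, had the smallest p of the members with OGs. It had 5.59, 5.23 and 5.54 with cellobiose, 5.58, 5.58 and 5.43 with chitin, 5.47, 5.60 and 5.97 with OGs, and 5.29, 5.16 and 5.47 in the control. OGs replicate 1 and control replicate 3 met, and the OGs change was 0.38 ± 0.13 (adjusted p = 0.183). The 4 cytochrome c maturation genes had cellobiose changes between -0.23 (ccmFC) and 0.03 (ccmFN2). ccmFC had 7.90, 7.80 and 7.84 with cellobiose, 8.08, 8.24 and 8.0 with chitin, 8.29, 7.78 and 8.12 with OGs, and 8.19, 7.99 and 8.05 in the control. All cellobiose arrays lay below all controls, at an adjusted p of 0.315, and the sign turned to 0.15 after the spike-in scaling. The dim gene ccmB had 4.20, 4.08 and 3.94 with cellobiose, 4.19, 4.35 and 4.13 with chitin, 4.08, 4.32 and 4.33 with OGs, and 4.13, 4.14 and 4.04 in the control, with all groups overlapping. mttB, a membrane translocase gene, had 6.58, 6.55 and 6.53 with cellobiose, 6.63, 6.74 and 6.54 with chitin, 6.90, 6.66 and 6.66 with OGs, and 6.77, 6.76 and 6.74 in the control. The cellobiose and control groups did not overlap, yet the change of only -0.20 ± 0.08 had an adjusted p of 0.183 and was 0.17 after the spike-in scaling. The intron maturase gene matR had 3.62, 3.72 and 3.58 with cellobiose, 3.56, 3.52 and 3.71 with chitin, 3.84, 3.56 and 3.63 with OGs, and 3.81, 3.70 and 3.77 in the control, all under 5. The probe set shared by the mitochondrial ribosomal genes rps3 and rpl16 had 6.6, 6.68 and 6.53 with cellobiose, 6.74, 6.14 and 7.03 with chitin, 7.01, 6.55 and 7.07 with OGs, and 6.88, 6.44 and 7.02 in the control. Its lowest array was chitin replicate 2, and its changes were -0.18, -0.14 and 0.10 with cellobiose, chitin and OGs.

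The 35 probe sets with no listed gene were mostly dim, with 29 at a mean level under 5. The median change over them with cellobiose was -0.0037, that with chitin 0.04 and that with OGs 0.02, and after the spike-in scaling these were 0.37, 0.25 and 0.25. The smallest p of any member with chitin belonged to 244910_s_at, which had 3.78, 3.71 and 3.82 with cellobiose, 3.91, 4.31 and 3.81 with chitin, 4.06, 3.91 and 4.03 with OGs, and 3.60, 3.76 and 3.70 in the control. Chitin and OGs arrays all lay above the controls by small amounts, 0.33 ± 0.12 and 0.31 ± 0.12 (adjusted p = 0.149 and 0.236). The probe set 244913_at had 3.93, 3.90 and 3.97 with cellobiose, 4.13, 4.17 and 4.01 with chitin, 4.1, 4.01 and 4.01 with OGs, and 3.70, 4.01 and 3.97 in the control, and its chitin change of 0.21 ± 0.10 did not pass (adjusted p = 0.231).

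**Figure D4:**
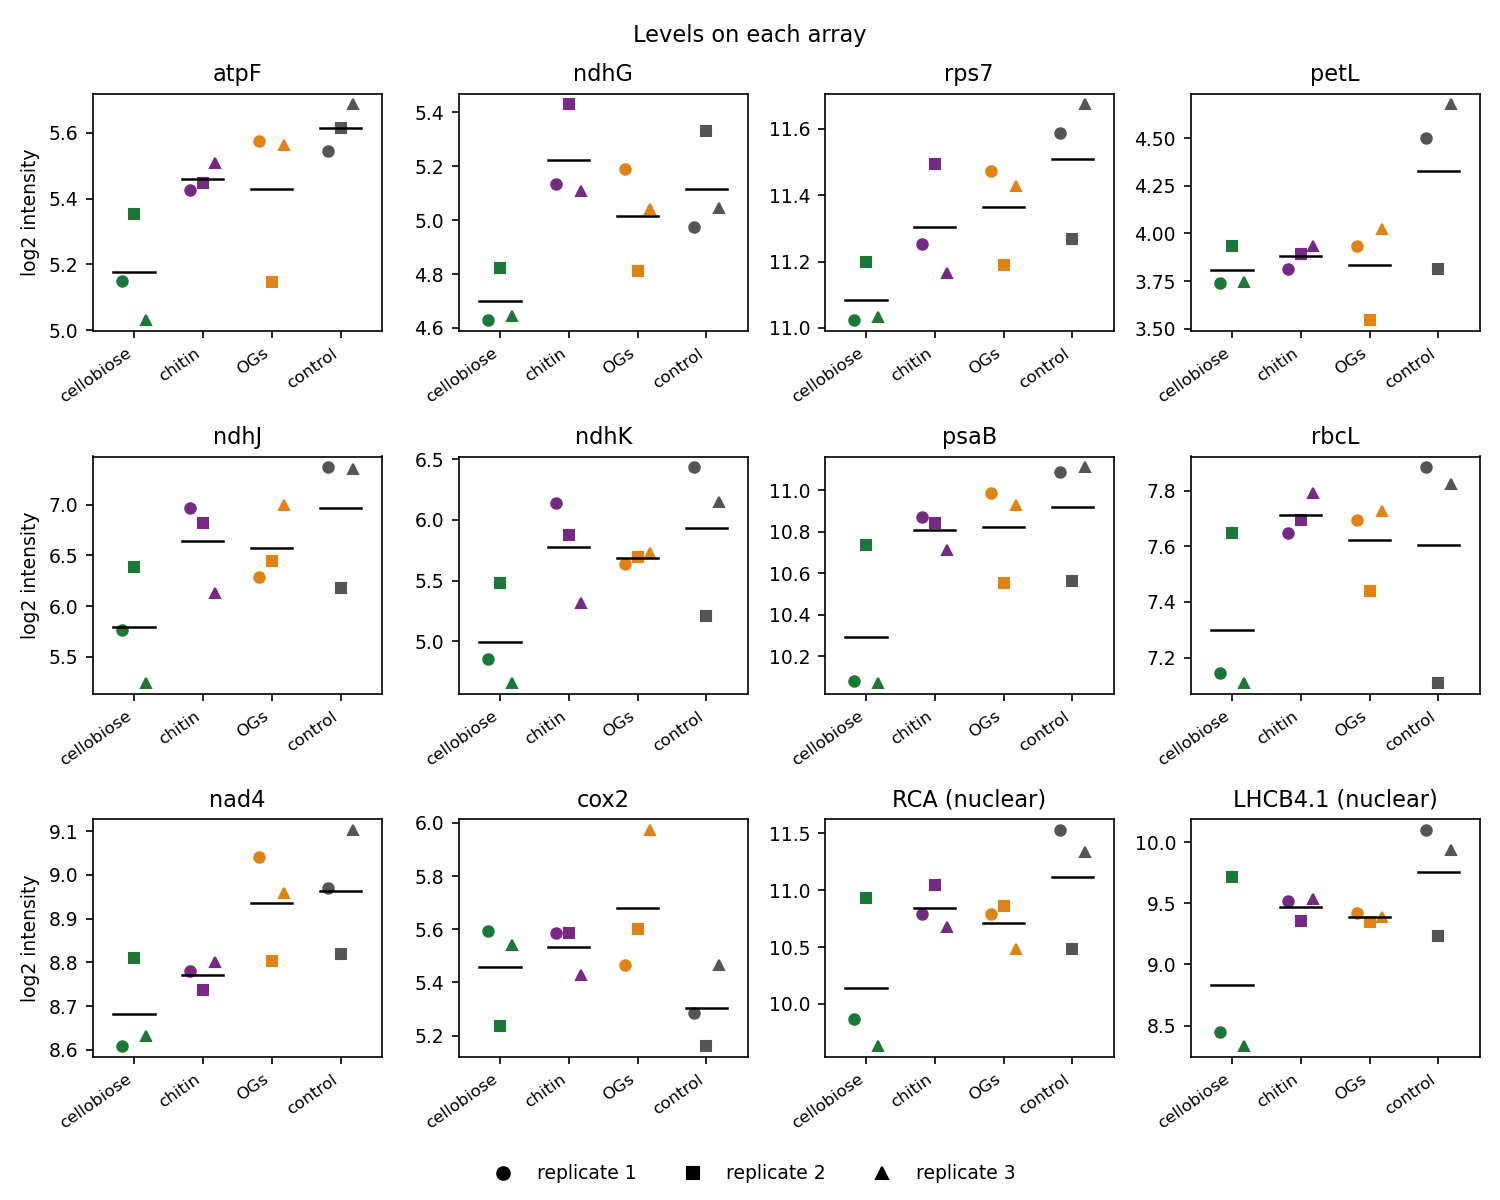
log2 intensity (y axis) of 10 organelle genes and the nuclear photosynthesis genes RCA and LHCB4.1 on each array, by group (x axis). Symbols are replicates 1 to 3, bars are means over 3 arrays, and y axes differ and do not start at 0. In ndhJ, ndhK, psaB, RCA and LHCB4.1 the square of cellobiose replicate 2 lies above that of control replicate 2, while the other 2 pairs are lower with cellobiose.

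All 3 cellobiose arrays lay below all 3 controls for 13 of the 120, or 10.8%, against 15.4% of all probe sets, and above them for 1, or 0.833%, against 9.78%. With chitin 9 lay below, against 16.8% of all, and 7 above, against 10.1%. With OGs 2 lay below, against 10.6%, and 2 above, against 8.18%. Each of these shares of the 120 is under that of all probe sets. Parts of the set went over it, on few members. With cellobiose 3 of the 13 mitochondrial genes lay below, or 23.1%, against 15.4% of all. With chitin 6 of the 35 probe sets with no listed gene lay above, or 17.1%, against 10.1%.

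Leaving out cellobiose replicate 2 changed the count with cellobiose most. The limma test then called 15 members, all lower with cellobiose, which is 12.5% of the 120 against 3.4% of all probe sets called lower in that fit. They were the plastid genes rpl32, ccsA, petL, petG, psbN, rps19, psbM, psaB, ndhJ, ndhK, atpE, psbI, atpA and atpF and the mitochondrial gene nad4. Without control replicate 2, 4 were called lower with cellobiose (ndhE, petL, ndhJ and ndhK), against 2.5% of all probe sets, and petL with chitin, against 1.76%. Without OGs replicate 2, ndhG and atpF were called lower with cellobiose, against 3.95% of all. Without OGs replicate 1, accD was called lower with OGs, against 0.246% of all. With all 12 arrays the counts are 0.

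Plastid genes also resembled each other within groups. After the group means were taken off, the deviations of 58 plastid genes with a mean level of at least 5 correlated with the median of the other plastid genes over the 12 arrays at a median Pearson r of 0.86, and 49 of them had an r above 0.5. Of these 58, petN, psaA and accD had an r below 0, at -0.61, -0.27 and -0.10. Among the 14 plastid genes under that level the median r was 0.55, and 5 had an r below 0. Pairs were formed among 52 plastid genes with a mean level of at least 5 and a single listed locus. In 39 pairs that lie side by side in the plastid genome the median r was 0.74 (range -0.54 to 0.95). In 1287 pairs that are not neighbours it was 0.66 (range -0.83 to 0.988). Among neighbours, ndhJ and ndhK had an r of 0.92, psbI and atpA of 0.92, and atpE and atpB of 0.95. These correlations describe probe sets that share the same 12 arrays and the array-wide shifts above, and they carry no test.

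**Figure D5:**
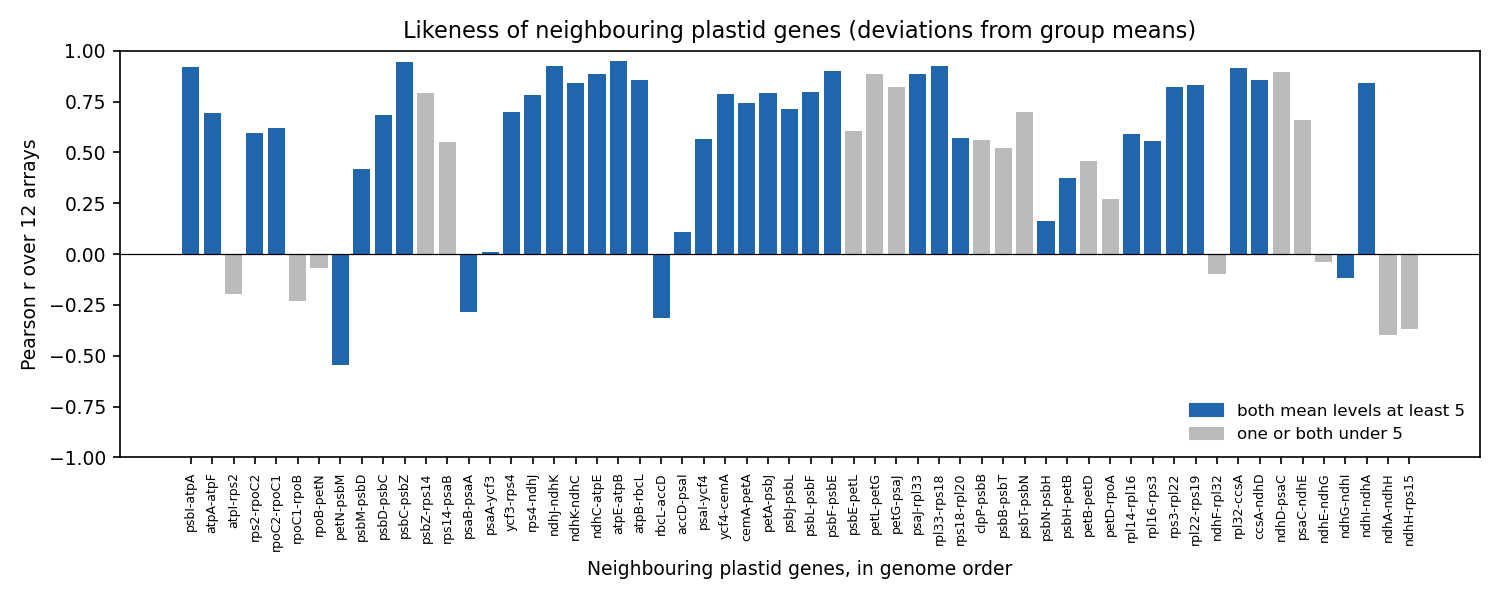
Pearson r (y axis) between neighbouring plastid genes over 12 arrays after removal of group means, in genome order (x axis). Blue bars are pairs with both mean levels at least 5, and the pairs petN with psbM and psaB with psaA are among the blue bars below 0, at -0.54 and -0.28.

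At the end of the run of probe sets, atpF is the last member and atpH, the gene of the ATP synthase ring, lies just outside. atpH had 6.33, 6.58 and 6.39 with cellobiose, 6.81, 6.81 and 6.86 with chitin, 6.77, 6.59 and 7.00 with OGs, and 7.83, 6.44 and 7.47 in the control. Its cellobiose change was -0.81 beside -0.44 for atpF, and the low array of its control group was again replicate 2.

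Nuclear genes that work with the organelles were read from 3 lists. Of the respiratory chain list, 13 of 31 genes were matched to a probe set by locus. Of these, 1 was called with cellobiose, 1 with chitin and 0 with OGs. The shares of all probe sets called were 8.64%, 8.8% and 4.06%, so the list's share was near that of all. The gene called was CYTC-2, which encodes the electron carrier cytochrome c, with 9.69, 9.87 and 9.62 with cellobiose, 9.79, 10.09 and 9.83 with chitin, 9.64, 9.48 and 9.67 with OGs, and 9.35, 9.23 and 9.23 in the control. Every elicitor array lay above every control. CYTC-2 rose with cellobiose by 0.46 ± 0.11 (adjusted p = 0.0323) and with chitin by 0.63 ± 0.11 (adjusted p = 0.0064), and its OGs difference of 0.33 ± 0.11 did not pass (adjusted p = 0.152). The cellobiose call was lost without any single cellobiose array, without control replicate 2 or 3, when only these groups were fitted and with ordinary tests (adjusted p between 0.052 and 0.14). Of the list for alternative respiration and mitochondrial stress, 8 of 20 genes were matched, with 0 called with cellobiose, 0 with chitin and 1 with OGs. The shares of all probe sets were again 8.64%, 8.8% and 4.06%, and 1 call among 8 genes is too few to describe the list. AT5G51440, a small heat shock protein gene of the mitochondrion, had 9.13, 9.82 and 9.08 with cellobiose, 8.76, 9.26 and 8.61 with chitin, 10.04, 9.37 and 9.47 with OGs, and 8.90, 8.15 and 8.27 in the control. All cellobiose and all OGs arrays lay above all controls. It rose with OGs by 1.19 ± 0.26 (adjusted p = 0.0379), while the cellobiose difference of 0.90 ± 0.26 (adjusted p = 0.0674) and the chitin difference of 0.44 ± 0.26 (adjusted p = 0.366) did not pass. The OGs call was lost without cellobiose replicate 3, chitin replicate 3, OGs replicate 1 or 3, or control replicate 2 or 3 (adjusted p between 0.0551 and 0.159) and with ordinary tests (0.169). With the spike-in scaling and ordinary tests the cellobiose difference passed instead (1.28, adjusted p = 0.0476) and the OGs difference did not (1.41, adjusted p = 0.0641). Of the list for organelle transcription and RNA turnover, 2 of 18 were matched and neither was called, with the unadjusted p of both over 0.05 in each comparison.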

How the data were processed

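Each array is given as log2 intensities per probe set, deposited by the authors as 1 table of 12 arrays after GCRMA, per the series' design text. Expression Console is named, per the submitters' processing notes, without a role. Names came from GEO's platform annotation, and the genome of each gene was looked up in the RefSeq annotation of TAIR10.1. The 64 control probe sets were kept apart. The members and gene lists were chosen with earlier results of these data known. One limma 3.58.1 model (R 4.3.3) with 4 treatments and the replicate number as a block was fitted to all 22746 probe sets, with two-sided tests and Benjamini-Hochberg adjustment over all of them, and called at 0.05. Residual degrees of freedom were 6 and prior degrees 3.09. The labels do not say whether replicates were separate cultures, so p-values measure only the spread between these samples. The block follows the design text, which takes ratios per sample pair. Deviations from group means of same-numbered arrays correlated at a mean of 0.208 over 18 pairs, 11 of them over 0.1. For different numbers the mean was -0.102 over 36 pairs, 9 of them over 0.1. As deviations cancel out within a group, the second mean largely follows from the first and is no separate support for the block. Over plastid genes, same-numbered cellobiose and control arrays correlated at -0.37, -0.73 and -0.57. The other same-numbered arrays lay between -0.58 and 0.77 there. Values on every array are given for the 3 members with the smallest p per elicitor and up to 2 members per role group with the smallest p over the 4 groups; other members named were chosen after their values were seen. In simulated data for cellobiose, 25 of 50 probe sets shifted by 0.5 log2 units and 43 of 50 shifted by 1 were called. These were drawn from all probe sets, with independent noise and no array-wide shifts. The median residual SD was 0.134 for all probe sets and 0.206 for plastid members, so these rates do not give the rate for plastid members. Alternatives were no block, leaving out each array, fitting only the groups compared, ordinary tests, a spike-in scaling, a filter at a mean level of 5, and other member sets.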

Additional observations from a re-analysis of the deposited data

How the results depend on the processing

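The number of arrays and the signal over background limit these results, since 49 of the 120 members had a mean level under 5. Without the replicate block the counts of members called stayed at 0, 0 and 0 with cellobiose, chitin and OGs, and the block changed no member's call. The count was 1 with cellobiose when only the compared groups were fitted, or 0.833% of members against 7.39% of all probe sets. Without 1 array it ranged over 0 to 15 with cellobiose, 0 to 1 with chitin and with OGs, and 0 to 0 between elicitors, and a test of the replicate number called 0 to 1 members. The median plastid change then ranged over -0.39 to -0.11 with cellobiose, -0.17 to -0.0060 with chitin and -0.11 to 0.080 with OGs, and the mitochondrial median over -0.084 to 0.010, -0.039 to 0.013 and -0.030 to 0.041. Spike-in scaling gave plastid medians of 0.14, 0.13 and 0.20 and mitochondrial medians of 0.35, 0.20 and 0.22 for cellobiose, chitin and OGs. Without probe sets of mean level under 5, the mitochondrial median was -0.18 with cellobiose and -0.097 with chitin. With probe sets outside the run added, chosen after seeing the data, it was 0.046 with OGs. Keeping the nuclear-listed probe sets, also chosen after seeing the data, gave 0 calls. No member was listed with both an organelle and a nuclear locus, so that alternative gave no value. The causes were not tested.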

Other observations

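The array holds 16 further probe sets for plastid and mitochondrial genes outside the numbered run, and limma called none of them with any elicitor. The photosystem II reaction centre gene psbA had 7.01, 8.06 and 6.94 with cellobiose, 7.78, 8.36 and 8.04 with chitin, 8.29, 7.74 and 8.49 with OGs, and 9.09, 7.80 and 9.09 in the control. Cellobiose replicate 2 and control replicate 2 crossed over here as in psaB, and the cellobiose change was -1.32 ± 0.42 (SE; adjusted p = 0.0923). The intron maturase gene matK stood at -0.57 ± 0.23 with cellobiose (adjusted p = 0.192), psbK at -0.35 and rps16 at 0.0016. Of 7 probe sets for the mitochondrial gene nad1, whose message is spliced together from separate transcripts, the cellobiose changes lay between -0.17 and 0.25. The cytochrome oxidase gene cox1 had 7.63, 7.71 and 7.52 with cellobiose and 7.88, 7.53 and 7.89 in the control, a change of -0.15 ± 0.15 (adjusted p = 0.675). The 5 dropped probe sets listed with nuclear loci of chromosome 2 had cellobiose changes between -0.15 and 0.04, and none was called.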
